A study of Sus scrofa with 11 samples.

Results

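The aldehyde dehydrogenase genes were described in day 10 skin wounds of a diabetic and a non-diabetic minipig, wound by wound. The genes were chosen by symbol, as ALDH1A1, ALDH1A2, ALDH1A3, ALDH1B1, ALDH2, ALDH3A2, ALDH4A1, ALDH7A1, ALDH9A1 and ALDH18A1, which are 10 of the 30376 genes measured. Their values played no part in the rule, but the genes were listed with earlier results of these data known, and ALDH7A1 is among the genes that the study itself singled out from these wounds. Diabetic wounds (N = 7) came from 1 female Yucatan minipig made diabetic by intravenous streptozotocin, a toxin of insulin-producing beta cells, at 125 mg/kg and 6 months of age, then given insulin until the week before wounding. Non-diabetic wounds (N = 4) came from 1 female Yucatan minipig without streptozotocin, whose age is not stated in the sources used here. All were full-thickness punch wounds of 2 cm on the back under the same dressings, sampled on day 10 with a punch of the same size, and each gave 1 library of polyadenylated RNA. Since each group is 1 animal, the variation within a group lies between wounds on the same back, p-values measure a difference against that variation, and diabetes cannot be told apart from the animal. The library names of each group also end in a suffix of their own, whose meaning the labels do not give.

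Aldehyde dehydrogenases oxidise aldehydes to carboxylic acids, with NAD or NADP as the acceptor of electrons. Members of the ALDH1A group make retinoic acid from retinaldehyde, ALDH2 and ALDH1B1 act on acetaldehyde and related small aldehydes in mitochondria, and ALDH3A2 acts on fatty aldehydes. The others stand in amino acid and amine pathways, ALDH7A1 in lysine and choline breakdown, ALDH4A1 in proline breakdown, ALDH9A1 in the making of carnitine and gamma-aminobutyric acid, and ALDH18A1, which runs the reaction in the reducing direction, in proline synthesis. In skin, retinoic acid is known to control keratinocyte differentiation, and proline is a main building block of collagen.

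The enzymes share a stretch around a cysteine that attacks the aldehyde, which is shown here because the genes have it in common. A glycine, then glutamine or glutamate, any residue, and cysteine occurred exactly once in the reference protein of 9 of the 10 genes. In ALDH18A1, a protein of 795 codons with a separate kinase part, the pattern was not found. The 33 reference bases (Sscrofa11.1, annotation of RefSeq, read on the coding strand) that run 6 codons before to 4 codons after that cysteine are given with the cysteine codon in capitals.
ALDH1A3, chr1:139475973-139476005, plus strand: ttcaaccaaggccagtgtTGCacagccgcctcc
ALDH1A2, chr1:114025832-114025864, plus strand: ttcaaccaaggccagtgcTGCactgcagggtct
ALDH1A1, chr1:226180499-226180531, minus strand: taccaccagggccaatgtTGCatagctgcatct
ALDH2, chr14:39915009-39915041, minus strand: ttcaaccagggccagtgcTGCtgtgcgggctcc
ALDH1B1, chr1:239113099-239113131, plus strand: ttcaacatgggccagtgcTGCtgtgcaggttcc
ALDH3A2, chr12:59948038-59948070, minus strand: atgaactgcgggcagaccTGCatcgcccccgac
ALDH4A1, chr6:77379483-77379515, minus strand: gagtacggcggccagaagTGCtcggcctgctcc
ALDH7A1, chr2:129678508-129678540, minus strand: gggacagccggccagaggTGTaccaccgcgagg
ALDH9A1, chr4 across an intron, plus strand: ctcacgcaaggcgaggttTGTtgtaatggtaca

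Of these 33 bases, counted against those of ALDH1A3, ALDH1A2 shared 27, ALDH2 shared 26, ALDH1A1 25 and ALDH1B1 23, while ALDH3A2 and ALDH4A1 shared 19 each and ALDH7A1 and ALDH9A1 16 each. The cysteine codon was TGC in 7 genes and TGT in 2, ALDH7A1 and ALDH9A1. The stretch of ALDH7A1 lies in coding exon 11 of 18, with the cysteine as codon 330. In ALDH1A1, ALDH1A2, ALDH1A3 and ALDH2 it fell in coding exon 9 of 13, in ALDH3A2 in coding exon 5 of 9 and in ALDH4A1 in coding exon 10 of 16. ALDH1B1 has 1 coding exon, and in ALDH9A1 the stretch crosses from coding exon 6 into coding exon 7 of 11.

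Depth was 28314785 to 40168372 reads on genes per wound. Values are FPKM, reads scaled by gene length and by a divisor for each library, so that levels can be compared between genes. Of the 10 genes, 9 passed a filter of 0.5 FPKM in at least 4 libraries and were tested by limma on log2(FPKM + 0.5) together with all 13956 genes that passed it, with Benjamini-Hochberg adjustment. To be called, a gene needed an adjusted p under 0.05 together with a log2 fold change beyond 0.5 in size. Fold changes below are diabetic over non-diabetic on that log2 scale, which understates the change of low genes. Single genes were also compared by an exact permutation test, two-sided, whose 330 splits of the wounds allow a p of 0.00303 at the smallest. Diabetic wound 4 and non-diabetic wound 1 stood apart from the other 9 wounds on the first principal component (44.5% of the variance, scores 76.0 and 72.2 against -38.9 to -7.00). They also had the lowest keratinocyte markers and the lowest S100A8 and S100A9. The list of 7 keratinocyte markers, without KRT14, whose symbol was not found, was led by KRT5 in the mean over all wounds. In diabetic wounds 6 and 7, however, KRT1 was above KRT5. The summed level of these 7 markers was 35.3 FPKM in diabetic wound 4 and 249 FPKM in non-diabetic wound 1, and 1339 to 6246 FPKM in the others. The summed level of 4 neutrophil markers, nearly all of it S100A8 and S100A9, was 23.7 and 167 FPKM against 2290 to 7240 FPKM. The other 2 of these markers did not set both wounds apart from all others. CSF3R was the lowest of each group in them, at 3.70 FPKM in diabetic wound 4 and 2.75 FPKM in non-diabetic wound 1. Non-diabetic wound 2 had 3.45 FPKM, below diabetic wound 4. MPO was the lowest of all wounds in diabetic wound 4, at 0.0259 FPKM. In non-diabetic wound 1 it was at 0.244 FPKM, above the 0.142 FPKM of non-diabetic wound 2.

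Of the 9 members tested, 1 was called lower in diabetic wounds and 0 higher, where 1.66% and 1.35% of all genes tested were called in these directions and 3.00% in either (limma). At an unadjusted p under 0.05 there were 2 members, against 18.4% of all genes, and limma's voom on recovered reads called 1. The fold changes of 7 members were below 0 and those of 2 above, with a median of -0.27, where the median of all genes was 0.01 and 52.3% of them lay above 0. The groups did not overlap in 2 of the 9, ALDH7A1 and ALDH18A1, with every diabetic wound below every non-diabetic wound, as in 2.96% of all genes tested (5.65% in either direction and 2.69% with every diabetic wound above). They did not overlap in ALDH1A2 either, which lay under the filter. Summed over the 10 genes diabetic wounds had 171 ± 14.5 FPKM (SD, n = 7) and non-diabetic wounds 205 ± 7.79 FPKM (SD, n = 4), with ranges of 146 to 189 and 197 to 214 FPKM. The largest differences in mean within this sum were those of ALDH18A1 (44.6 and 62.1 FPKM) and ALDH7A1 (16.1 and 27.2 FPKM). The means of ALDH3A2, ALDH4A1, ALDH9A1 and ALDH1A2 were higher in diabetic wounds.

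**Figure D1:**
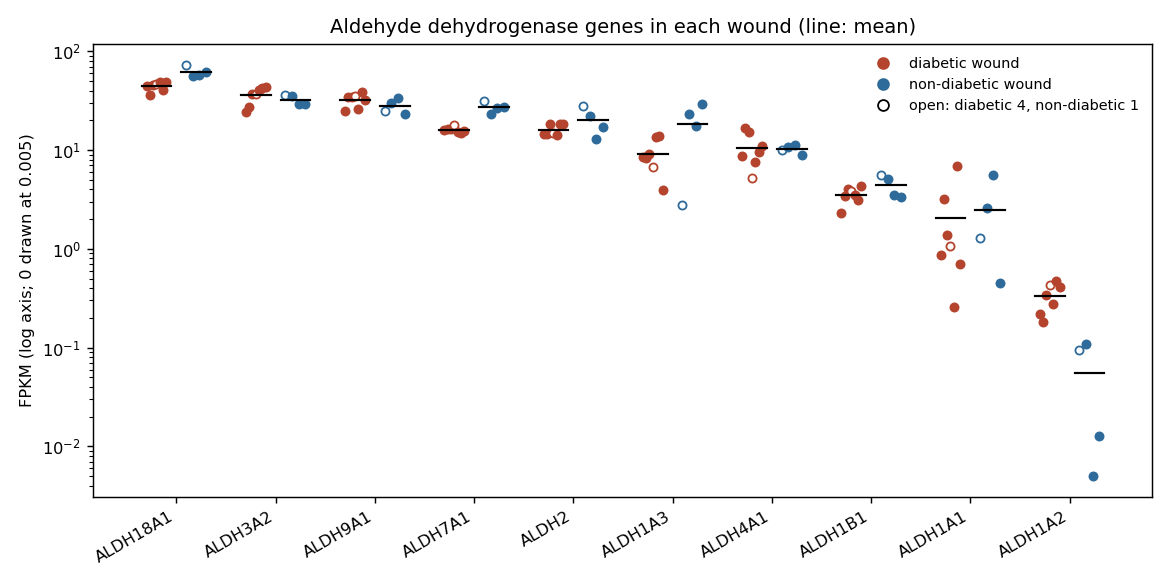
Level of each of the 10 aldehyde dehydrogenase genes in each wound, in FPKM on a log axis, with a line at the group mean and open points for diabetic wound 4 and non-diabetic wound 1. ALDH18A1 is the most abundant at 44.6 and 62.1 FPKM, the red and blue points do not overlap in ALDH18A1, ALDH7A1 and ALDH1A2, and a value of 0 in ALDH1A2 is drawn at the foot of the axis.

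ALDH7A1, which oxidises aminoadipate semialdehyde from lysine and betaine aldehyde from choline, was the member called lower in diabetic wounds. It lies on chromosome 2 from 129663226 to 129709728. Its level was 31.3, 23.4, 26.7 and 27.5 FPKM in non-diabetic wounds 1 to 4, and 15.0 FPKM at the lowest, 16.1 at the median and 17.9 at the highest in the diabetic wounds. The highest diabetic wound thus lay below the lowest non-diabetic wound. The means were 16.1 ± 0.975 FPKM (SD, n = 7) and 27.2 ± 3.21 FPKM (SD, n = 4), 1.69 times as high without diabetes, and the log2 fold change was -0.73 (standard error, SE, 0.09, 95% interval -0.93 to -0.54, limma adjusted p = 0.00103). The exact permutation test gave p = 0.00303. As in any piece of tissue, fewer cells that express a gene and less RNA per cell cannot be told apart. The coefficient of variation of ALDH7A1 between diabetic wounds was 6.05%, the smallest among the 10 genes in that group. Between 1752 and 4774 reads per wound lay behind these values. Diabetic wound 4 and non-diabetic wound 1 had the highest ALDH7A1 of their groups, and without both the log2 fold change was -0.69 (limma adjusted p = 0.00673). A pseudogene on the opposite strand within the gene, LOC110259133, was at 0 to 0.203 FPKM in every wound.

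The neighbouring steps of lysine and choline breakdown were measured as a list of 10 genes, 9 of them found and 4 tested. The other 5 lay under the filter, 2 of these at 0 in every wound, AADAT and BHMT. All 4 tested genes had a fold change below 0, with a median of -0.57, while the median over all 9 genes found was -0.06. Of the 4, AASS and CHDH passed the filter mostly through the non-diabetic wounds, in which they are higher. In the diabetic group AASS reached 0.5 FPKM in wound 2 alone and CHDH in wound 6 alone. The list had 2 genes called lower, DHTKD1 and GCDH (limma), where 1.66% of all genes were. DHTKD1, a subunit of the complex that decarboxylates the ketoadipate formed from lysine, was at 1.60 to 2.28 FPKM in the non-diabetic wounds and at 0.652 FPKM at the lowest, 0.830 at the median and 1.04 at the highest in the diabetic wounds. The groups did not overlap, and the means were 0.857 ± 0.135 FPKM (SD, n = 7) and 1.93 ± 0.375 FPKM (SD, n = 4). Its log2 fold change was -0.83 (SE 0.12, limma adjusted p = 0.00413).

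GCDH, the glutaryl-CoA dehydrogenase of the following step and the most abundant of the list, was at 4.90, 4.64, 4.40 and 3.76 FPKM in non-diabetic wounds 1 to 4 and at 1.80 to 3.14 FPKM in the diabetic wounds. Here too the groups did not overlap. The means were 2.52 ± 0.434 FPKM (SD, n = 7) and 4.42 ± 0.487 FPKM (SD, n = 4), a log2 fold change of -0.71 (SE 0.13, limma adjusted p = 0.0124). GCDH was not called without non-diabetic wound 1 (-0.67, limma adjusted p = 0.0501) or without both wounds that stood apart (-0.65, limma adjusted p = 0.0712). AASS, whose enzyme takes the initial steps from lysine, and CHDH, which makes betaine aldehyde from choline, were not called, with 0.371 against 0.643 FPKM for AASS (log2 fold change -0.39, limma adjusted p = 0.142) and 0.353 against 0.634 FPKM for CHDH (-0.42, limma adjusted p = 0.184). The levels of these 4 genes were all well below that of ALDH7A1 in every wound. The 3 genes whose level followed ALDH7A1 most closely from wound to wound, once each group's mean was subtracted, were SNRNP25 (Pearson r = 0.905), ERMARD (0.898) and SNAP23 (0.888), over 11 wounds that share their animals and with no p.

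**Figure D2:**
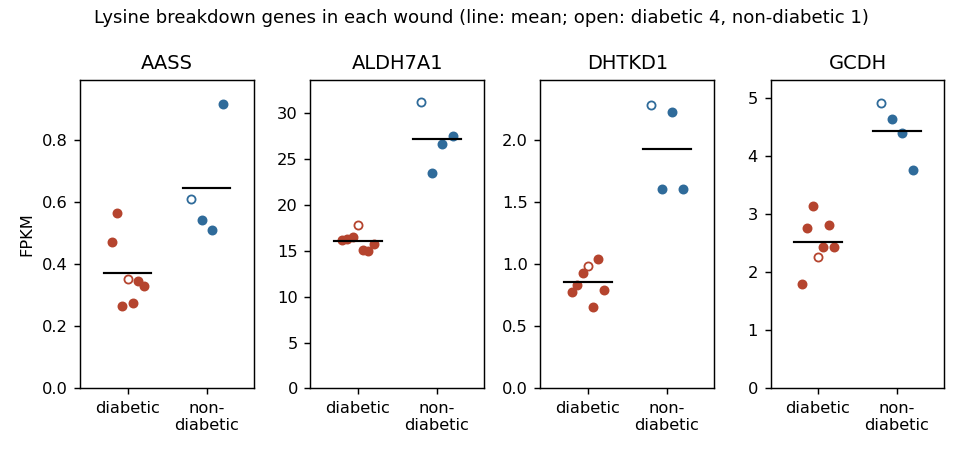
Levels in FPKM of AASS, ALDH7A1, DHTKD1 and GCDH, in the order of their steps in lysine breakdown, in each diabetic (n = 7) and non-diabetic (n = 4) wound, with lines at the means and open points for diabetic wound 4 and non-diabetic wound 1. In ALDH7A1, DHTKD1 and GCDH every diabetic wound lies below every non-diabetic wound, and in AASS the groups overlap.

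ALDH18A1, the bifunctional enzyme that turns glutamate into the precursor of proline and ornithine, was the most abundant member in both groups. It lies on chromosome 14 from 107174062 to 107221373. The non-diabetic wounds had 73.6, 56.5, 57.0 and 61.2 FPKM, and the diabetic wounds 36.3 FPKM at the lowest, 45.4 at the median and 49.4 at the highest. Every diabetic wound was below every non-diabetic wound. The means were 44.6 ± 4.77 FPKM (SD, n = 7) and 62.1 ± 7.95 FPKM (SD, n = 4), 1.39 times as high without diabetes. The log2 fold change was -0.47 (SE 0.11, 95% interval -0.71 to -0.24, limma adjusted p = 0.0346), past the adjusted threshold, as in 3.58% of all genes, but under the fold required for a call. The exact permutation test gave p = 0.00303. Leaving out single wounds moved the adjusted p between 0.0378 and 0.109 (limma), and the highest value, with a fold change of -0.39, came without non-diabetic wound 1. ALDH18A1 was called when the libraries were quantile normalised (-0.60, limma adjusted p = 0.00959) or brought to equal sums (-0.55, limma adjusted p = 0.00528).

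ALDH4A1 works in the opposite direction, from proline back to glutamate in mitochondria, and lies on chromosome 6 from 77373999 to 77404015. Its level was 10.1, 10.7, 11.2 and 8.93 FPKM in non-diabetic wounds 1 to 4 and 5.21 FPKM at the lowest, 9.48 at the median and 16.8 at the highest in the diabetic wounds. The diabetic wounds lay on both sides of the non-diabetic ones, 3 below the lowest and 2 above the highest. The means were 10.5 ± 4.14 FPKM (SD, n = 7) and 10.2 ± 0.969 FPKM (SD, n = 4), with coefficients of variation of 39.3% and 9.48%. No difference between the means was detectable (log2 fold change -0.04, 95% interval -0.61 to 0.53, limma adjusted p = 0.954, and p = 0.894 by the exact permutation test). The lowest value was that of diabetic wound 4, and without it the fold change was 0.10. Of the proline and glutamate genes, 8 were tested and 0 called (limma), where 3.00% of all genes were. At an unadjusted p under 0.05 there were 0, against 18.4% of all genes, and voom called 0. The median fold change of this list was -0.06. PYCR1, which completes proline synthesis and was the most abundant of them, had 64.2 ± 17.3 FPKM (SD, n = 7) and 64.4 ± 16.9 FPKM (SD, n = 4).

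ALDH1A2, a retinaldehyde dehydrogenase best known from the embryo, was the least abundant member and the only one of the 10 with every diabetic wound above every non-diabetic wound. It lies on chromosome 1 from 113932722 to 114037059. The non-diabetic wounds had 0.0944, 0.108, 0 and 0.0126 FPKM, from 11, 14, 0 and 2 reads, and the 0 of wound 3 allows up to 0.0212 FPKM at 3 reads. The diabetic wounds had 0.181 FPKM at the lowest, 0.344 at the median and 0.477 at the highest, from 32 to 55 reads. The means were 0.334 ± 0.111 FPKM (SD, n = 7) and 0.0538 ± 0.0553 FPKM (SD, n = 4), a ratio of 6.20 that rests on few reads in the non-diabetic wounds. The exact permutation test gave p = 0.00303, and 0.0119, the smallest that 84 splits allow, without diabetic wound 4 and non-diabetic wound 1. The groups failed to overlap in 3.01% of the 6622 genes that lay under the filter and above 0 in at least 4 libraries, and diabetic wounds were above in 0.861%. The difference in mean log2 was 0.58 with 0.5 added to the FPKM, 1.53 with 0.1 added and 0.34 with 1 added. In a fit without the filter, ALDH1A2 was called higher (limma adjusted p = 0.0208).

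ALDH1A3, the retinaldehyde dehydrogenase with the highest level of the 3 ALDH1A genes in these wounds, lies on chromosome 1 from 139451080 to 139491514. Non-diabetic wounds 1 to 4 had 2.79, 23.1, 17.5 and 29.5 FPKM. The diabetic wounds had 3.98 FPKM at the lowest, 8.61 at the median and 13.9 at the highest. Non-diabetic wound 1 was thus the lowest of all 11, while the other 3 non-diabetic wounds were above every diabetic wound. The means were 9.20 ± 3.52 FPKM (SD, n = 7) and 18.2 ± 11.4 FPKM (SD, n = 4), a difference no larger than the variation between wounds (log2 fold change -0.65, SE 0.53, limma adjusted p = 0.569, and p = 0.318 by the exact permutation test). Without non-diabetic wound 1 the fold change was -1.36 (limma adjusted p = 0.0699). Without diabetic wound 4 as well, it was -1.31 (limma adjusted p = 0.0879), with p = 0.0119 by the exact permutation test, the smallest that test can give with 9 wounds. The fold change without non-diabetic wound 4, the highest, was -0.30. The summed keratinocyte markers of non-diabetic wound 1, 249 FPKM, were the second lowest after the 35.3 FPKM of diabetic wound 4, in which ALDH1A3 was the second lowest of its group at 6.79 FPKM. The lowest ALDH1A3 of the diabetic group, 3.98 FPKM, was that of diabetic wound 7, whose summed keratinocyte markers, 5371 FPKM, were the second highest of all. Most of that sum was KRT1 (2561 FPKM) and KRT10 (1207 FPKM). KRT5 of that wound, 1278 FPKM, was the median of the diabetic group. The part of keratinocyte RNA in ALDH1A3 was not tested. LOC106509041, which shares 536 bases with ALDH1A3 on the opposite strand, was at 0 to 0.383 FPKM.

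ALDH1A1, the broad cytosolic retinaldehyde dehydrogenase, lies on chromosome 1 from 226163347 to 226217342 and varied more between wounds than any other tested member. The non-diabetic wounds had 1.30, 2.59, 5.61 and 0.448 FPKM, and the diabetic wounds 0.260 FPKM at the lowest, 1.07 at the median and 6.94 at the highest. The groups overlapped over nearly their whole range. The means were 2.06 ± 2.35 FPKM (SD, n = 7) and 2.49 ± 2.26 FPKM (SD, n = 4), with coefficients of variation of 114% and 90.8%. The 95% interval of the log2 fold change ran from -1.67 to 1.06 (fold change -0.30, limma adjusted p = 0.848, and p = 0.673 by the exact permutation test), which leaves large differences in either direction undetectable with these wounds. Without non-diabetic wound 3 the fold change was 0.15.

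The retinoid list held 22 genes of retinol uptake, oxidation, binding, breakdown and reception, 20 found and 17 tested, with a median fold change of -0.03. Of these, 2 were called lower and 0 higher (limma), where 1.66% of all genes were called lower, and 6 had an unadjusted p under 0.05, against 18.4% of all genes. Both genes called encode retinol dehydrogenases, whose product is the substrate of the ALDH1A enzymes. Other retinol dehydrogenases of the list, with higher means, were not called. RDH11 had 13.4 ± 5.05 FPKM (SD, n = 7) and 13.0 ± 4.99 FPKM (SD, n = 4) (log2 fold change 0.07, limma adjusted p = 0.940). RDH12 had 10.6 ± 6.87 FPKM (SD, n = 7) and 9.42 ± 7.21 FPKM (SD, n = 4) (0.38, limma adjusted p = 0.892). RDH5, known for its part in the visual cycle, was at 1.68, 2.03, 2.98 and 0.819 FPKM in non-diabetic wounds 1 to 4, from 47 to 153 reads, and at 0.0527 to 0.332 FPKM in the diabetic wounds, from 2 to 16 reads. The groups did not overlap. The means were 0.171 ± 0.0969 FPKM (SD, n = 7) and 1.88 ± 0.896 FPKM (SD, n = 4), and the log2 fold change was -1.76 (SE 0.22, limma adjusted p = 0.00163), or -2.82 with 0.1 added to the FPKM in place of 0.5 and -3.41 by voom on recovered reads. RDH5 was at 0.5 FPKM or more in the non-diabetic wounds only and so passed the filter through the group in which it is high. Without a filter its limma adjusted p was 0.00288.

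RDH10, the main retinol dehydrogenase of embryonic tissues, lay at the threshold and overlapped between groups. It had 5.93, 5.00, 6.33 and 3.93 FPKM in non-diabetic wounds and 2.46 to 4.44 FPKM in diabetic wounds, with means of 5.30 ± 1.07 FPKM (SD, n = 4) and 3.17 ± 0.706 FPKM (SD, n = 7). Its log2 fold change was -0.66 (SE 0.16, limma adjusted p = 0.04997), and the call held in 9 of 25 alternatives. Without diabetic wound 4 and non-diabetic wound 1 the fold change was -0.56 and the gene was not called. CRABP2, the retinoic acid carrier and the most abundant of the list, was not called, at 378 ± 74.6 FPKM (SD, n = 7) and 344 ± 31.4 FPKM (SD, n = 4) (log2 fold change 0.12, limma adjusted p = 0.745). The symbols of 2 retinoic acid hydroxylases, CYP26B1 and CYP26C1, were not found in the table.

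**Figure D3:**
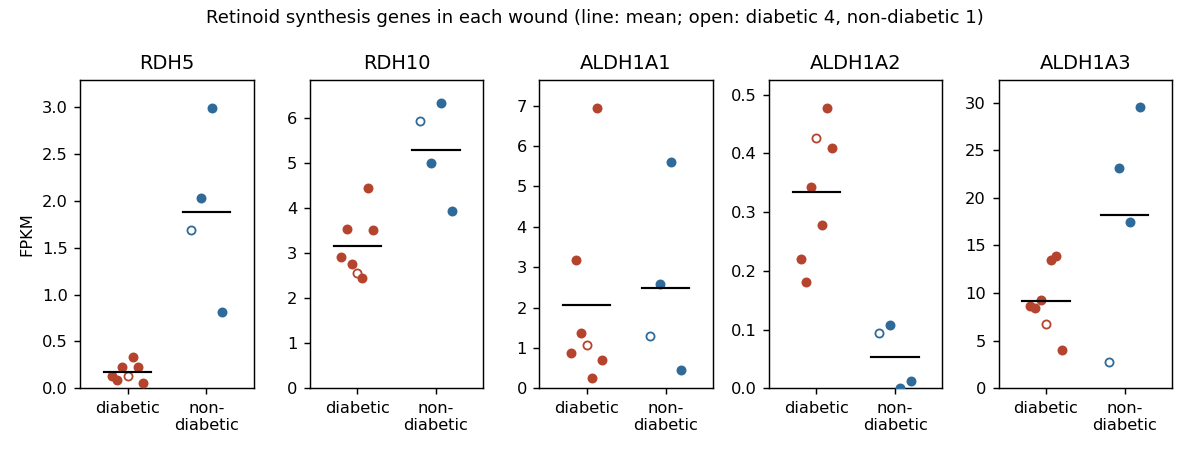
Levels in FPKM of RDH5 and RDH10, the retinol dehydrogenases called lower, and of the 3 ALDH1A genes in each diabetic (n = 7) and non-diabetic (n = 4) wound, with lines at the means and open points for diabetic wound 4 and non-diabetic wound 1. Diabetic wounds lie below in RDH5 and above in ALDH1A2 without overlap, and non-diabetic wound 1, at 2.79 FPKM, is far from the other 3 of its group in ALDH1A3.

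ALDH2, the mitochondrial enzyme that clears acetaldehyde and lipid peroxidation products, lies on chromosome 14 from 39902317 to 39933113 and was at 28.1, 22.3, 13.1 and 17.0 FPKM in the non-diabetic wounds. The diabetic wounds ran from 14.2 FPKM through a median of 14.7 to 18.5 FPKM, all within the range of the non-diabetic ones. The means were 16.2 ± 2.05 FPKM (SD, n = 7) and 20.1 ± 6.51 FPKM (SD, n = 4) (log2 fold change -0.26, 95% interval -0.65 to 0.13, limma adjusted p = 0.481, and p = 0.197 by the exact permutation test). LOC102160475, described as laforin-like, shares 4768 bases with ALDH2 on the opposite strand and was at 1.60 to 2.66 FPKM, and the strand setting of the counting is not stated. The close relative of ALDH2, ALDH1B1, whose coding sequence lies in a single exon on chromosome 1 between 239109814 and 239114736, was lower in level in every wound. Non-diabetic wounds 1 to 4 had 5.63, 5.07, 3.51 and 3.34 FPKM, and the diabetic wounds 2.33 FPKM at the lowest, 3.52 at the median and 4.29 at the highest. The groups overlapped, with means of 3.52 ± 0.651 FPKM (SD, n = 7) and 4.39 ± 1.14 FPKM (SD, n = 4) (log2 fold change -0.27, 95% interval -0.64 to 0.10, limma adjusted p = 0.440, and p = 0.179 by the exact permutation test). In both genes non-diabetic wound 1 was the highest of all 11, and without it the fold change was -0.087 in ALDH2 and -0.15 in ALDH1B1. Without diabetic wound 4 as well, it was -0.067 and -0.17. Without non-diabetic wound 3, the lowest of all in ALDH2, that of ALDH2 was -0.44.

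Of the 14 genes that make or clear small aldehydes beside them, 11 could be assigned to a single row and 10 were tested, with a median fold change of 0.15. None was called by limma, where 3.00% of all genes were, and 0 by voom, with 3 at an unadjusted p under 0.05, against 18.4% of all genes. CAT, the catalase gene and the most abundant of these, had 75.3 ± 17.0 FPKM (SD, n = 7) and 57.0 ± 5.84 FPKM (SD, n = 4) (log2 fold change 0.37, limma adjusted p = 0.271).

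ALDH3A2, the fatty aldehyde dehydrogenase of the endoplasmic reticulum whose loss causes Sjögren-Larsson syndrome with scaly skin, lies on chromosome 12 from 59936838 to 59953677. Its level was 36.2, 35.5, 29.0 and 29.5 FPKM in the non-diabetic wounds and 24.5 FPKM at the lowest, 37.1 at the median and 43.8 at the highest in the diabetic wounds. Of the diabetic wounds, 5 were above the highest non-diabetic wound and 2 below the lowest. The means were 36.1 ± 7.50 FPKM (SD, n = 7) and 32.6 ± 3.83 FPKM (SD, n = 4), a difference no larger than the variation between wounds (log2 fold change 0.13, 95% interval -0.24 to 0.49, limma adjusted p = 0.743, and p = 0.476 by the exact permutation test). The 2 low wounds, diabetic wounds 1 and 2 at 24.5 and 27.2 FPKM, also had the lowest summed fibroblast markers, 22588 and 19104 FPKM against 34333 to 64978 FPKM in the other 9 wounds. The part of fibroblast RNA in the level of ALDH3A2 was not tested. Of the fatty aldehyde list, 7 genes were tested and 0 called (limma), where 3.00% of all genes were. At an unadjusted p under 0.05 there was 1, against 18.4% of all genes, and voom called 0. The median fold change of this list was -0.10. PHYH, which prepares branched fatty acids for alpha-oxidation, was the most abundant, at 43.1 ± 5.94 FPKM (SD, n = 7) and 48.8 ± 4.62 FPKM (SD, n = 4).

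ALDH9A1 lies on chromosome 4 from 85029914 to 85057650 and encodes the enzyme for gamma-aminobutyraldehyde and for an aldehyde on the way to carnitine. Non-diabetic wounds 1 to 4 had 25.0, 29.9, 33.4 and 23.1 FPKM. The diabetic wounds had 25.2 FPKM at the lowest, 34.3 at the median and 38.9 at the highest, 4 of them above every non-diabetic wound. The means were 32.3 ± 5.06 FPKM (SD, n = 7) and 27.8 ± 4.65 FPKM (SD, n = 4) (log2 fold change 0.21, 95% interval -0.10 to 0.52, limma adjusted p = 0.470, and p = 0.164 by the exact permutation test). This was the largest fold change above 0 among the 9 members tested. Of the amine and carnitine genes around it, 7 were tested and 0 called (limma), where 3.00% of all genes were. At an unadjusted p under 0.05 there were 0, against 18.4% of all genes, and voom called 0. The median fold change of this list was 0.13. The most abundant was SAT1, which acetylates polyamines, at 332 ± 50.7 FPKM (SD, n = 7) and 335 ± 7.74 FPKM (SD, n = 4).

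**Figure D4:**
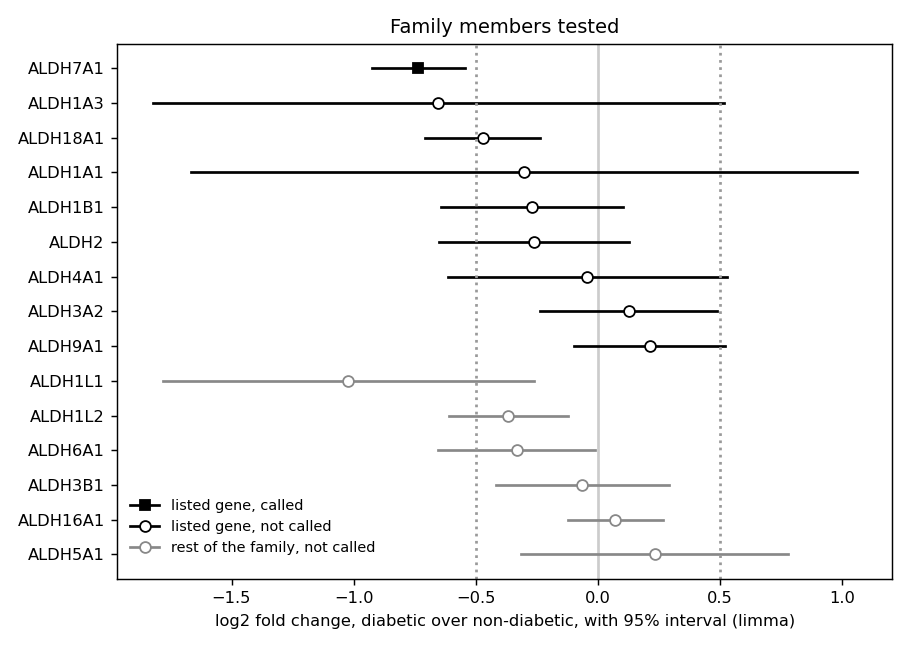
Log2 fold change of diabetic over non-diabetic wounds with its 95% interval (limma on log2(FPKM + 0.5)) for the 9 listed aldehyde dehydrogenase genes tested, in black, and for 6 other genes of the family, in grey, with dotted lines at the fold required for a call. ALDH7A1, the filled square at -0.73, is the gene called, and the intervals of ALDH1A1 and ALDH1A3 are the widest of the listed genes.

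Among themselves the members were spread over a wide range of levels. In diabetic wounds the order by mean was ALDH18A1, ALDH3A2, ALDH9A1, ALDH2, ALDH7A1, ALDH4A1, ALDH1A3, ALDH1B1, ALDH1A1 and ALDH1A2, from 44.6 to 0.334 FPKM. Neighbours in this order overlapped in their ranges over wounds in 8 of 9 pairs, and the step from ALDH9A1 to ALDH2 was the one without overlap. In non-diabetic wounds ALDH18A1 stood clear of ALDH3A2, and ALDH4A1 of ALDH1B1 and ALDH1A1 of ALDH1A2 were the other steps without overlap. There ALDH7A1 was the fourth, between ALDH9A1 at 27.8 FPKM and ALDH2 at 20.1 FPKM, and in diabetic wounds the fifth, at 16.1 FPKM beside 16.2 FPKM of ALDH2.

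A second list held 9 other genes of the family, 8 of them found and 6 tested. None of the 6 was called by limma, where 3.00% of all genes were, and none in any of 25 alternatives. At an unadjusted p under 0.05 there were 3 of 6, against 18.4% of all genes. The median fold change was -0.20, with 4 of 6 below 0. ALDH1L1, a folate enzyme of the cytosol, had 1.70, 2.33, 5.80 and 1.05 FPKM in non-diabetic wounds and 0.370 to 1.60 FPKM in diabetic wounds. The groups overlapped, and non-diabetic wound 3 lay far above the rest. The log2 fold change of ALDH1L1 was -1.02 (SE 0.35, limma adjusted p = 0.137, and p = 0.0212 by the exact permutation test), and -0.63 without non-diabetic wound 3. Its mitochondrial counterpart ALDH1L2 had 16.0 ± 1.47 FPKM (SD, n = 7) and 20.9 ± 3.60 FPKM (SD, n = 4) (log2 fold change -0.37, SE 0.11, limma adjusted p = 0.0990, and p = 0.00606 by the exact permutation test).

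ALDH6A1, the methylmalonate semialdehyde dehydrogenase of valine breakdown, had 2.44 ± 0.386 FPKM (SD, n = 7) and 3.23 ± 0.847 FPKM (SD, n = 4) (log2 fold change -0.33, limma adjusted p = 0.254). The other 3 tested were ALDH3B1 (9.13 and 9.50 FPKM, log2 fold change -0.06), ALDH5A1, the succinate semialdehyde dehydrogenase (1.74 and 1.46 FPKM, 0.23), and ALDH16A1 (7.15 and 6.76 FPKM, 0.07). ALDH3A1 lay under the filter at 0.175 and 0.180 FPKM, and ALDH8A1 was at 0 in every wound. LOC100522421, described as similar to ALDH3B2 and named here after its values were seen, lies on chromosome 2 from 4910123 to 4928559. It was at 0.163 FPKM in diabetic wound 4 and 0.191 FPKM in non-diabetic wound 1, and at 1.82 to 7.32 FPKM in the other 9 wounds. The wounds poor in keratinocyte markers were thus also the lowest in this gene, and its fold change was 0.92 (SE 0.65, limma adjusted p = 0.502).

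Markers of cell types differed in level between wounds and were set beside the members. Of 6 macrophage markers, 3 were called higher in diabetic wounds, MRC1, ITGAM and CD14 (limma), where 1.35% of all genes were, while CD68, the most abundant, was not, and the summed level of the list was 242 to 394 FPKM against 143 to 254 FPKM. Of 4 adipocyte markers, 1, LEP, was called lower (limma), where 1.66% of all genes were. LEP had 0.156 ± 0.156 FPKM (SD, n = 7) and 1.31 ± 0.753 FPKM (SD, n = 4), but it passed the filter through the non-diabetic wounds alone. All 4 had a fold change below 0, with summed levels of 15.8 to 194 and 87.7 to 209 FPKM. Of 4 mural markers, RGS5 was called lower (limma, log2 fold change -0.87), while MYH11 was at 0.60, DES at 0.56 and CNN1 at -0.0073, none of them called, and the median was 0.28. Of 6 lymphocyte and plasma cell markers, 5 were tested and 1, CD79A, was called higher (limma), where 1.35% of all genes were. The other genes tested were not called, CD3E (log2 fold change 0.25), CD3D (0.37), CD2 (-0.07) and JCHAIN (1.03), the most abundant. Fibroblast markers, 7 genes led by COL3A1, had summed levels of 19104 to 52725 and 34333 to 64978 FPKM. All 7 had a fold change below 0, with a median of -0.26. None of them was called (limma), 0 had an unadjusted p under 0.05, against 18.4% of all genes, and voom called 0. Endothelial markers had 159 to 208 and 158 to 205 FPKM, mural markers 66.2 to 250.1 and 82.8 to 121 FPKM (93.7 FPKM at the highest without diabetic wound 3, whose DES was at 181 FPKM), lymphocyte and plasma cell markers 50.6 to 108 and 19.3 to 84.6 FPKM, and Schwann cell markers 3.69 to 8.50 and 3.16 to 4.51 FPKM. Sebaceous gland markers, all under the filter, had 0.152 to 1.87 and 0 to 0.188 FPKM, with AWAT1 at 0 in every wound. FA2H, the most abundant of them, had means of 0.734 and 0.0439 FPKM. Melanocyte markers had 0.155 to 7.05 and 1.92 to 17.0 FPKM. Skeletal muscle markers reached 1339 FPKM in diabetic wound 3 and were at most 0.198 FPKM in every other wound, and in that wound ALDH7A1 was at 16.5 FPKM and ALDH18A1 at 45.4 FPKM, inside the range of the other diabetic wounds. The part of keratinocyte, fibroblast, macrophage, adipocyte, mural and lymphoid RNA in the lower ALDH7A1 and ALDH18A1 and the higher ALDH1A2 was not tested.

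**Figure D5:**
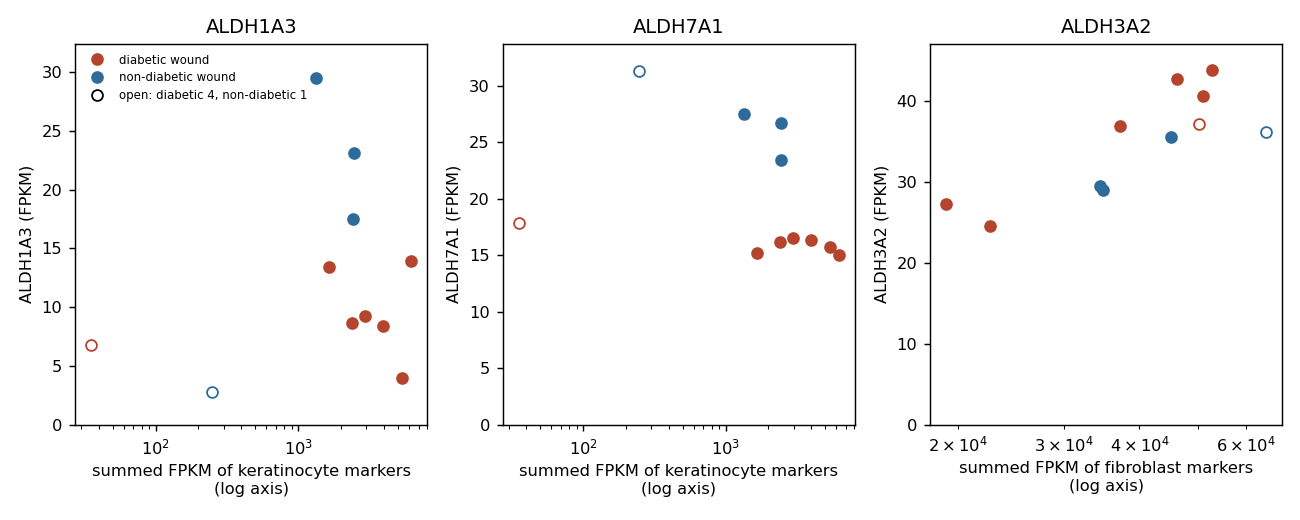
ALDH1A3 and ALDH7A1 (FPKM) against the summed level of keratinocyte markers, and ALDH3A2 (FPKM) against that of fibroblast markers (log axes in FPKM), with 1 point per wound and open points for diabetic wound 4 and non-diabetic wound 1. The diabetic wounds lie between 15.0 and 17.9 FPKM in ALDH7A1, and no non-diabetic wound lies above 2455 FPKM in keratinocyte markers. Non-diabetic wound 1 is low in both ALDH1A3 and keratinocyte markers, and the 2 wounds with the lowest fibroblast markers have the lowest ALDH3A2.

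The 250 reference bases before the annotated start are given for the 3 genes in which the groups did not overlap, ALDH7A1 and ALDH18A1 with lower and ALDH1A2 with higher levels in diabetic wounds (Sscrofa11.1, RefSeq annotation, read towards the gene). Capitals mark, on either strand, the GC box letters GGGCGG and the letters of the CAAT box, given below as CCAAT. The TATA box, searched as TATAAA, was found in none of the 3 windows.
ALDH7A1, chr2:129709729-129709978, minus strand: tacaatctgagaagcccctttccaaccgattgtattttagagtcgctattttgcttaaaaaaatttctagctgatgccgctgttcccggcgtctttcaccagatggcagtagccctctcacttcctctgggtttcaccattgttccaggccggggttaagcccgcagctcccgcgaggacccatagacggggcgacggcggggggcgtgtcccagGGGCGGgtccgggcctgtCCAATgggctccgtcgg
ALDH18A1, chr14:107221374-107221623, minus strand: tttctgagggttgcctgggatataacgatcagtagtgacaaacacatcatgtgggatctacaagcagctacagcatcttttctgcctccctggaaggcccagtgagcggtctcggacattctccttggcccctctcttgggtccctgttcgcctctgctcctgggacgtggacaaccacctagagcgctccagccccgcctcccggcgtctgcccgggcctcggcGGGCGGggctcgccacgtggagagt
ALDH1A2, chr1:113932472-113932721, plus strand: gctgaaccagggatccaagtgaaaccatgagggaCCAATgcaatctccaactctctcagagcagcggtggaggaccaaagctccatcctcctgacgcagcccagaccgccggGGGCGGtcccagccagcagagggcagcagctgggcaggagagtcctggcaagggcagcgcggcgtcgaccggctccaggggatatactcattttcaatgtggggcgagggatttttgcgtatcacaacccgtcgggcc

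GGGCGG occurred once in each of the 3 windows, and in 45.9% of 19569 windows of the same length before annotated genes. CCAAT occurred once in ALDH7A1 and in ALDH1A2 and did not occur in that of ALDH18A1, against 31.9% of all windows, and TATAAA in 9.77% of all windows. The windows held 18 CG pairs in ALDH7A1, 15 in ALDH18A1 and 14 in ALDH1A2, where the median of all windows was 12. These matches describe the letters in the windows only, and no binding was measured in these wounds.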

How the data were processed

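RNA was measured in 7 diabetic and 4 non-diabetic wounds, with groups taken from the labels. The unit is FPKM as deposited by the authors, who used fastp for trimming, HISAT2 2.2.1 for mapping to Sscrofa11.1, StringTie 2.2.3 for assembly and featureCounts 2.0.6 for counting. The formula and the strand setting are not given in the sources used here. Multiplied by gene length, all values were whole multiples of 1 read within 0.05 reads, which gave the recovered reads. The divisor behind the FPKM was not the reads on genes alone. It ran from 0.854 times that number in non-diabetic wound 1 to 1.18 times in diabetic wound 2. Over the wounds the divisor had the same order as the median-of-ratios size factors of the recovered reads. Of 30376 genes, 30335 matched the RefSeq annotation of that build, and 26 symbols turned into dates were repaired.

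Values of genes reaching 0.5 FPKM in 4 or more libraries were fitted on the log2(FPKM + 0.5) scale by limma (lmFit, eBayes with trend), since the deposited values are FPKM. The study's count test, DESeq2, was not run on the recovered reads, to which voom was applied as an alternative. Intervals of fold changes are at 95%. The members, lists and tests were chosen with earlier results of these data known. Named genes are the members, the rest of the family, called and most abundant genes of each list, at most 5 called per pathway list and 3 per marker list, and the 3 genes most correlated with a called member. Further genes of the lysine, choline, retinoid and marker lists and overlapping genes were named after their values were seen. The alternatives were other choices of pseudocount, filter, scaling, spread estimate, weights, block, covariate, model and wounds. The fit was tested on simulated data. Fits ran in limma 3.58.1 under R 4.3.3. Other steps used pandas 2.3.3, numpy 2.4.6 and SciPy 1.17.1 under Python 3.11.15, with matplotlib 3.10.9 for plots.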

Additional observations from a re-analysis of the deposited data

Results flagged for a closer look

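In 20 sets of wounds, the values of each of the 10 genes in each group, no wound lay far enough from the others of its group to pass Dixon's 95% limit, which chance passes in about 1 of 20 sets.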

How the results depend on the processing

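Of 604 results recomputed under alternatives, 552 kept their direction and their side of the threshold or stayed within the limit for a count. Members called by limma were 1 as reported and 1 whichever wound was left out, 2 without a filter on low values (ALDH1A2 higher, ALDH7A1 lower), 2 with quantile normalisation, 2 with libraries brought to equal sums and 2 without a fold threshold (ALDH18A1 added in these 3). With the replicate number as a block, 0 members, 0 genes of the pathway lists against 4, and 16 of all genes against 419 were called (limma), 11 higher and 5 lower. ALDH7A1 then had a log2 fold change of -0.68 (limma adjusted p = 0.213), where its adjusted p was 0.000320 to 0.00673 in the other 24 alternatives. The wounds share only a number. Deviations of same-numbered wounds correlated at -0.267, 0.215, 0.0678 and -0.483, and non-diabetic wounds 1 to 4 correlated best with diabetic wounds 4, 6, 2 and 2.

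Library weights called 822 of all genes and 7 pathway genes. Without diabetic wound 4 and non-diabetic wound 1 the call for all genes was 212, and leaving out single wounds gave 209 to 482, with 209 without non-diabetic wound 1, 273 without wound 2, 220 without wound 3, 255 without wound 4 and 279 without diabetic wound 3. Pathway genes called ran from 3 to 5 over the single wounds. Equal sums moved the share of higher calls from 44.9% to 34.2%, with a shift of the median of all genes by -0.06.

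Directions turned in 4 genes of the family, none of them called. Leaving out single wounds gave -0.75 to 0.15 for ALDH1A1, -0.17 to 0.10 for ALDH4A1 and -0.15 to 0.036 for ALDH3B1. The block gave -0.066 for ALDH3A2 and 0.029 for ALDH4A1, and library weights 0.036 for ALDH4A1 and 0.047 for ALDH3B1. Without both wounds that stood apart, ALDH4A1 was at 0.10 (p = 0.762, exact permutation test) and ALDH1A3 had p = 0.0119 by the same exact test. The causes were not tested. With 1 animal per group, no alternative bears on differences between animals, and depth limits ALDH1A2, at 0 to 14 reads per non-diabetic wound.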
